A study of Mus musculus with 2 samples.

Results

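The proteasome genes described here are the 50 protein-coding genes of GENCODE M21 whose symbols begin with Psma, Psmb, Psmc, Psmd, Psme, Psmf or Psmg followed by a digit, of 21938 protein-coding genes in all. The rule that picks them uses gene names and no measured value. ATAC-seq, an assay that marks open chromatin by where a transposase can cut and tag it, was run on primary megakaryocyte progenitors, the blood precursors of the cells that shed platelets. Male C57BL/6J mice, adult at 5 to 6 weeks of age, were the source, and 1 group of 2 libraries of 50000 cells each, biological replicates 1 and 2 in the labels, was made. Both libraries carry the same donor identifier in the labels, no treatment or genetic change is named, and there was no second condition, so no contrast between groups could be tested. A mean ± SD is taken across the 2 libraries' own lists (n = 2) and measures only the spread between them.

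Files analysed were peak lists on mm10, and read depth per library is unknown. The list made by the authors from both libraries, their conservative list, held 80938 open regions, that of replicate 1 alone 61735 and that of replicate 2 alone 60098. A gene had a promoter region when a peak summit lay within 1 kb of one of its annotated start sites, and the promoter signal is the authors' peak signal at the strongest summit of that region. The labels also describe the cells as CFU-M. Of 12 megakaryocyte markers, 7 had a promoter region in the conservative list, where 60.5% of all protein-coding genes had one. The median signal of the 7 was 6.01, against 11.3 over all genes with a promoter region. Vwf and Tubb1 were among the markers with none there. Among markers of other blood cells, promoter regions were listed at 3 of 5 erythroid genes, 4 of 5 granulocyte and macrophage genes, 0 of 3 mast cell genes, 1 of 3 B cell genes and 0 of 3 T cell genes. The median signal of the listed genes was 11.6 for the erythroid and 7.08 for the granulocyte and macrophage markers, and the 1 B cell gene had 17.1. Whether other cells in the sample contributed to the proteasome promoters was not tested.

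The proteasome is the large protease that destroys proteins tagged with ubiquitin. Its barrel, the 20S core particle, is built of alpha rings (Psma genes) around beta rings (Psmb genes) that hold the proteolytic sites, and the 19S regulatory particle unfolds substrates with a ring of ATPases (Psmc genes) and binds and trims ubiquitin with non-ATPase subunits (most Psmd genes). Interferon signalling can exchange the catalytic beta subunits for those of the immunoproteasome, which shapes peptides for antigen presentation. When proteasome activity falls, the transcription factor NFE2L1 raises many of these genes together. Inhibitors of the proteasome are known to lower platelet numbers in patients, and megakaryocytes use the proteasome when they form proplatelets. The name rule also took in Psmc3ip, which encodes a cofactor of meiotic recombination (Hop2) and not a proteasome protein, so 49 of the genes belong to the proteasome system.

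Promoters of the proteasome genes were open with few exceptions. In the conservative list 47 of the 50 genes (94%) had a promoter region, against 60.5% of all protein-coding genes. The same 47 genes had one in the list of replicate 1 (57.4% of all genes), in that of replicate 2 (56.6%) and so in both (55.3%). The 3 genes without a promoter region were Psma8, Psmb11 and Psme2b. No gene was listed in only 1 replicate.

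Promoter signals of the 47 genes ran from 7.47 to 21.7 in the conservative list, with a median of 13.3. For all 13276 genes that had such a region it was 11.3. In replicate 1 the medians were 11.9 for the proteasome genes and 10.6 for all genes, and in replicate 2 they were 13.0 and 11.3. Of the 47, 32 lay above the median of all genes with a promoter region (50% of those genes do) and 20 lay above the upper quartile of 14.04 (25% do), while only 2, Psma7 and Psmf1, lay below the lower quartile of 8.62. The middle of the distribution was higher, while its range fell inside that of all genes, whose highest promoter signal was 27.6. Replicate 2 gave the higher signal in 39 of the 47 genes, a share of 83.0% against 77.9% of all genes with a promoter region in both lists. On the log2 scale, replicate 2 exceeded replicate 1 by a median of 0.09 at the proteasome genes and by 0.09 at all genes. Across the 47 genes the Spearman correlation of the libraries' signals was 0.968, given as a description since both lists come from the same genes and the same assay.

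**Figure D1:**
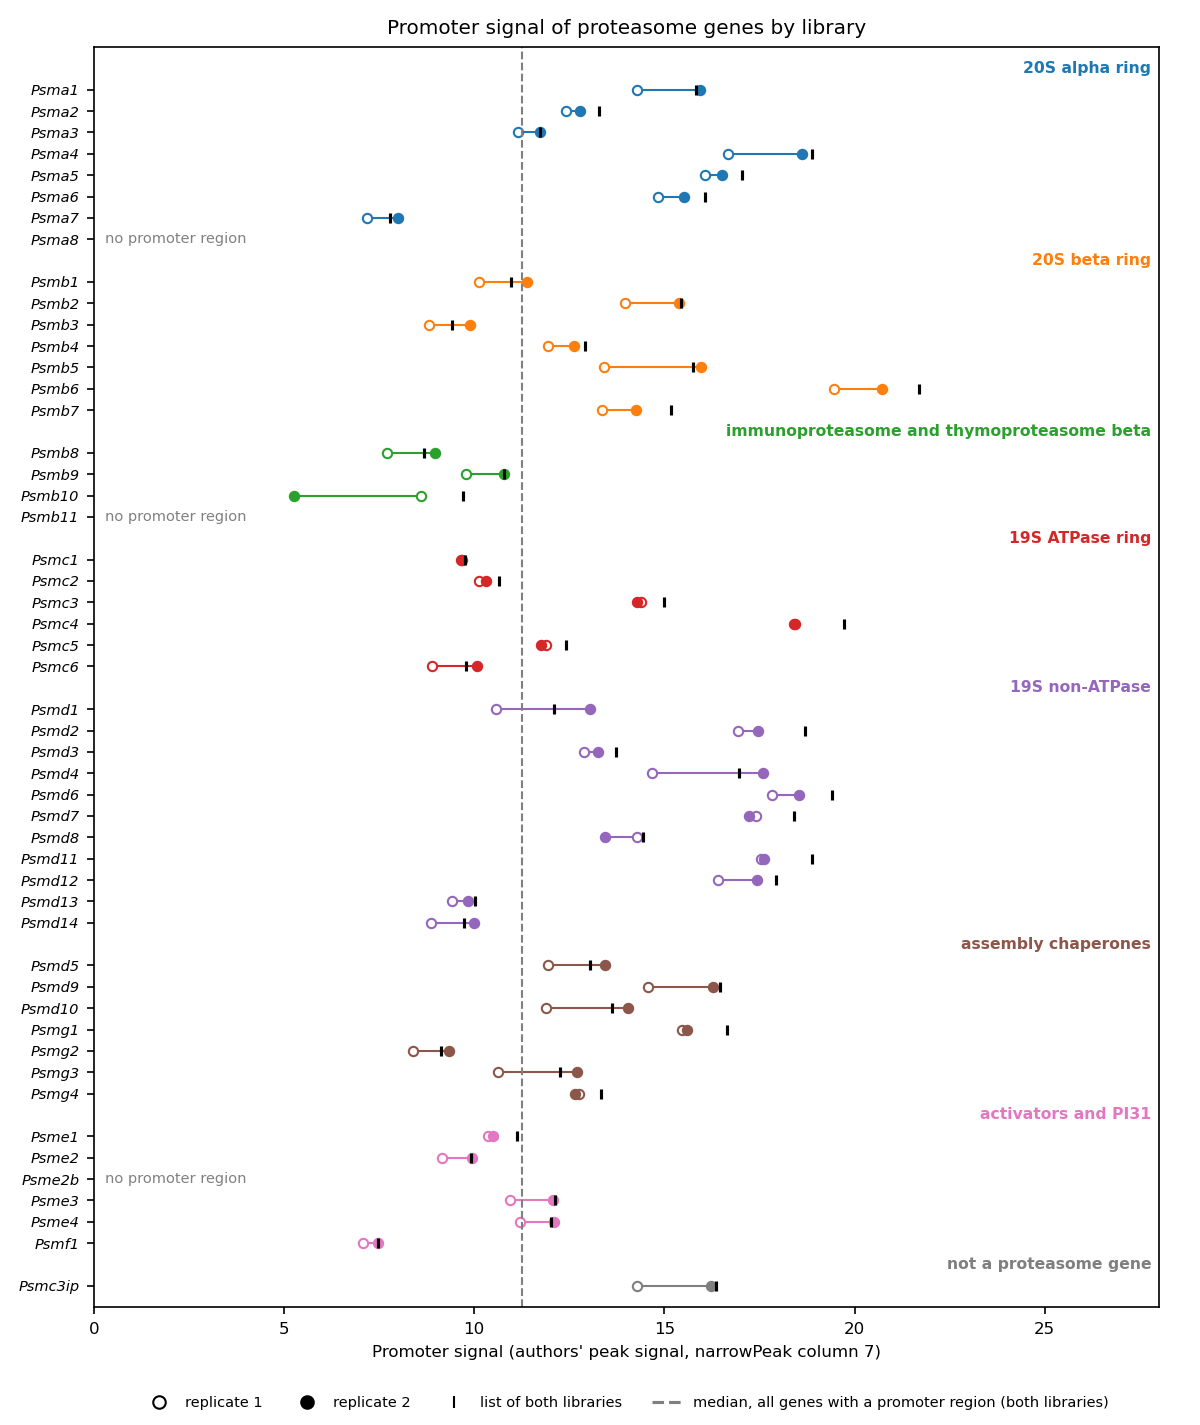
Promoter signal (horizontal axis, the authors' peak signal, no unit) of each proteasome gene, grouped by role. Open circles are replicate 1, filled circles replicate 2 and black ticks the list of both libraries; the dashed line marks 11.3, the all-gene median in the list of both libraries. Psmb6 lies farthest right, replicate 2 of Psmb10 (5.26), Psmf1 and Psma7 farthest left, and Psma8, Psmb11 and Psme2b have no point. At Psmb10 the open circle (8.60) and the filled circle come from different summits, since the replicates' lists split its region differently.

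Among the alpha ring genes, whose products gate the entry of the core, 7 of 8 had a promoter region and 6 lay above the median of all genes. Psma4 was the highest, with signals of 16.7 in replicate 1, 18.6 in replicate 2 and 18.9 in the conservative list, above 96.8% of genes with a promoter region. Psma7 was the lowest, with 7.18, 7.99 and 7.77 in the same order, at percentile 17.8. Over the replicates Psma4 had 17.6 ± 1.36 (SD, n = 2) and Psma7 7.58 ± 0.572. Both were picked as the extremes of the group from these same libraries, so the gap between them is a description and no test. The products of Psma4 and Psma7 are known to be neighbours in each alpha ring. The remaining open alpha genes, Psma1, Psma2, Psma3, Psma5 and Psma6, fell between these, from 11.7 at Psma3 to 17.05 at Psma5.

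All 7 constitutive beta ring genes had a promoter region. Psmb6, which encodes the subunit with caspase-like activity, had the highest promoter signal of all 50 genes, with 19.5 in replicate 1, 20.7 in replicate 2 and 21.7 in the conservative list, above 99.4% of genes with a promoter region. The other catalytic subunits, Psmb5 (chymotrypsin-like) and Psmb7 (trypsin-like), had 15.8 and 15.2 in the conservative list. Among the structural beta subunits Psmb2 reached 15.4, Psmb4 12.9 and Psmb1 10.96. Psmb3 was the lowest of the ring, with 8.80 in replicate 1, 9.90 in replicate 2 and 9.42 in the conservative list. Over the replicates Psmb6 had 20.1 ± 0.905 and Psmb3 9.35 ± 0.775 (SD, n = 2). They too were picked as the extremes of the ring from these same libraries, so their gap is no test.

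Each immunoproteasome gene had an open promoter with a lower signal than its constitutive counterpart in both libraries. Psmb8 takes the place of Psmb5 and had signals of 7.70 in replicate 1 and 8.96 in replicate 2, where Psmb5 had 13.4 and 15.97, so the signal at Psmb5 was 1.74 and 1.78 times that at Psmb8. Psmb9 takes the place of Psmb6 and had 9.78 and 10.8, where Psmb6 had 19.5 and 20.7, a ratio of 1.99 and 1.92. Psmb10 takes the place of Psmb7 and needs a closer look. In the conservative list it lies in 1 region of 1761 bp (chr8:105936821-105938581) with 5 summits. The strongest summit of that region, with a signal of 9.71, lies in an intron of Psmb10, 1360 bp downstream of its start. Within 1 kb of the start the strongest summit had a signal of 5.67 in the conservative list, 5.74 in replicate 1 and 5.26 in replicate 2, and the signal at Psmb7 was 2.67, 2.33 and 2.71 times as high. All 3 immunoproteasome genes lay below the median of all genes with a promoter region. Psmb11, the thymic counterpart of Psmb5, had no promoter region in any list used here. No test was run on these pairs, which are 3 genes each in 2 libraries.

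Psmb8 and Psmb9 lie on either side of Tap1 on chromosome 17, and Tap1, the peptide transporter gene of antigen presentation, shares its promoter region with Psmb9. The start sites of Psmb9 and Tap1 point away from each other and lie 38 bp apart at their closest, and the same summit gave both genes the signal of 10.8. The Psmb8 region was the narrowest of the set at 455 bp, whereas the Psmb9 and Tap1 region spanned 1167 bp. Tap2, the other half-transporter, had a promoter signal of 7.72 in the conservative list.

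The 6 genes of the 19S ATPase ring, which sit together in 1 ring in the particle, all had a promoter region, and their signals spread widely. Psmc4 had 18.4 in both replicates and 19.7 in the conservative list, and Psmc3 had 14.4, 14.3 and 15.0. At the low end, Psmc1 had 9.68 in replicate 1, 9.66 in replicate 2 and 9.76 in the conservative list, and Psmc6 8.89, 10.1 and 9.79, so their order differed between the libraries. Psmc2 and Psmc5 had 10.6 and 12.4 in the conservative list. The libraries differed most at Psmc6 and lay close together at the other 5.

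The 11 non-ATPase subunits had the highest median signal of the role groups, 16.95 in the conservative list, and 9 of them lay above the median of all genes. The highest was Psmd6, a subunit of the lid, with 17.8 in replicate 1, 18.5 in replicate 2 and 19.4 in the conservative list. It was followed by the lid subunit Psmd11 (18.9), the scaffold subunit Psmd2 (18.7), and the lid subunits Psmd7 (18.4) and Psmd12 (17.9). Psmd14, the deubiquitinase that removes ubiquitin chains from substrates, was the lowest in the conservative list, with 9.72 (9.43 ± 0.804, SD, n = 2, over the libraries), and did not separate from Psmd13 (9.62 ± 0.291), which was the lower of the pair in replicate 2. Psmd4, a ubiquitin receptor, differed most between the libraries in this group in signal units, with 14.7 and 17.6.

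Assembly chaperones and accessory factors completed the set. All 7 chaperone genes had a promoter region. Psmg1, a chaperone of the core particle, was the highest in the conservative list with 16.6 (15.5 in replicate 1 and 15.6 in replicate 2), whereas Psmd9 was higher in replicate 2 with 16.3. Psmg2, the partner of Psmg1, was the lowest (8.39, 9.35 and 9.12). The proteins of Psmg1 and Psmg2 are known to act as a dimer. Of the 6 activator and regulator genes 5 had a promoter region, and their median of 11.1 was close to that of all genes. Psme3, the nuclear 11S activator, was the highest of this group in the conservative list with 12.1 (10.9 and 12.1 in the replicates), while Psme4, another activator, was slightly higher in each replicate (11.2 and 12.1). Psmf1, which encodes the regulator PI31, had 7.07, 7.47 and 7.47, the lowest of the 47 genes in the conservative list and in replicate 1. In replicate 2 Psmb10 was lower with 5.26, and by the strongest summit within 1 kb Psmb10 was lower in all 3 lists. The replicates' lists split the Psmb10 region at different places. In replicate 1 the intron summit (8.60) shared a region with a summit 751 bp downstream of the start. In replicate 2 the intron summit (10.2) stood in a separate region beyond 1 kb and was left out. The 8.60 and the 5.26 thus come from different summits. The interferon-inducible activator genes Psme1 and Psme2 had 11.1 and 9.92 in the conservative list. Psmc3ip, outside the proteasome, had 14.3, 16.2 and 16.3.

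Psma8 encodes the alpha subunit that replaces Psma7 in the testis. The nearest region of the conservative list had its summit at -23051 bp from the gene's 5′ end, upstream of it, but the longer replicated and pseudoreplicated lists held a weak region at its start with a signal of 3.13. In the authors' ranked list of summit pairs the strongest summit there had an irreproducible discovery rate of 0.389. Psmb11, the thymic subunit, had no summit within 1 kb of a start in that ranked list, and the nearest region lay 2104 bp downstream of its 5′ end (chr14:54623425-54623813, signal 8.08). Its summit lay at -1773 bp from the nearer of the gene's 2 annotated start sites, upstream of that site, and so within a promoter window of 2 kb. Psme2b had no summit within 1 kb in the ranked list either, and its nearest region lay 22178 bp away. Its transcript matched that of Psme2 at 99.4% of 794 aligned bases, and how the authors treated reads that map to several places is not given in the labels; its part in the missing region was not tested.

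Summits of the proteasome promoters lay close to the start sites. The strongest summit within 1 kb lay at a median of -24 bp, upstream of the start, against -41 bp over all genes that had one. Within 50 bp of a start site lay 28 of the 47 summits (59.6%), against 41.1% over all genes, and within 100 bp 37 (78.7%), against 63.5%. Widths were ordinary, with a median of 891 bp against 876.5 bp. The main exceptions were Psme2, whose strongest summit lay at -574 bp (upstream), Psme3 at -319 bp, Psmd1 at -267 bp and Psmb10 at 300 bp (downstream). Each of these 4 had a weaker summit within 33 bp of a start site, with signals of 7.98 at Psme2, 9.05 at Psme3, 4.54 at Psmb10 and 10.2 at Psmd1.

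**Figure D2:**
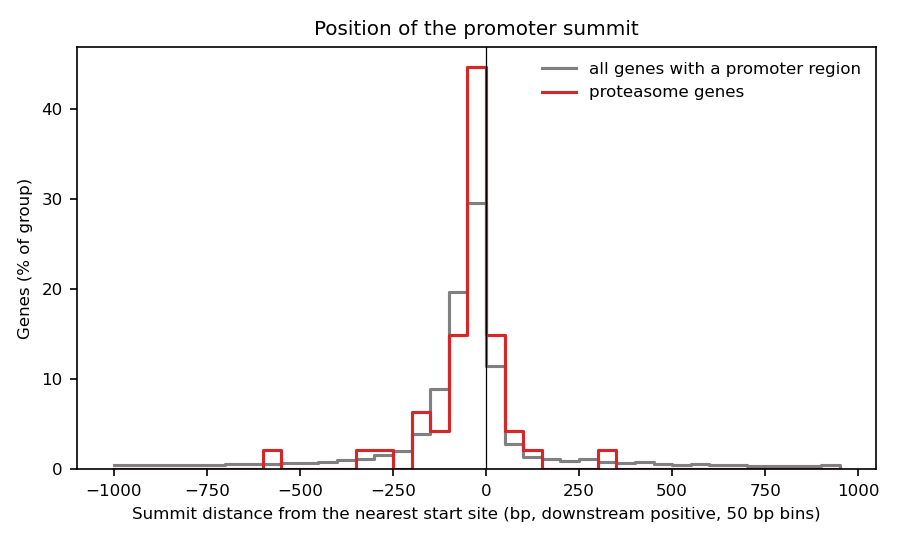
Share of genes (vertical axis, % of each group) by the distance of the strongest promoter summit from the nearest annotated start site (horizontal axis, bp, downstream positive, bins of 50 bp), for the 47 proteasome genes with a promoter region (red) and all 13276 such genes (grey). The red line peaks at the start site, where 28 of 47 summits lie within 50 bp.

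Several proteasome promoters are shared with a neighbour. A protein-coding gene on the other strand began within 1 kb, head to head, at 11 of the 50 genes (22%), against 10.4% of all protein-coding genes; among genes with a promoter region the shares were 23.4% and 16.2%. The pairs were Psma2 with Mrpl32, a mitochondrial ribosomal protein gene, Psma4 with AY074887, Psma7 with Ss18l1, Psmb1 with Tbp, the gene of the TATA-binding protein, Psmb9 with Tap1, Psmc2 with Dnajc2, Psmc5 with Ftsj3, Psmd10 with Atg4a, Psmd13 with Sirt3, Psmg2 with Cep76 and Psme2 with Rnf31. In these pairs 1 region served both genes, so its signal cannot be divided between them. Start sites were 32 bp apart at Psmc2 and Dnajc2 and 595 bp apart at Psme2 and Rnf31, the closest and the widest of the 11 pairs. The median signal was 10.8 at the 11 paired genes and 14.7 at the other 36. Over all genes the order was the reverse, 11.9 at head-to-head promoters and 11.1 at others.

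Sequence at the summits was searched, in either orientation, for the consensus letters of 16 motifs. Each window reached 75 bp to the left and right of the strongest summit within 1 kb of a start. The ETS letters CCGGAAG, the core bound by a family of transcription factors that includes Fli1, Ets1 and Gabpa, were found in 17 of the 47 windows (36.2%), against 14.1% of the windows of all genes with a promoter region. Matches were unevenly spread over the particle. Among the 19S subunits 11 of 17 windows held the letters, at Psmc1, Psmc2, Psmc3 and Psmc6 and at Psmd2, Psmd6, Psmd7, Psmd11, Psmd12, Psmd13 and Psmd14. Among the alpha and constitutive beta genes of the 20S core 2 of 14 did, at Psma6 and Psmb7, and none of the 3 immunoproteasome genes did. This grouping into 19S and 20S genes was made after the matches were seen. The remaining matches were at Psmg1, Psmg3, Psme4 and Psmc3ip. The 20 ETS matches had a median position of -3 bp from the nearest start site, and 11 (55%) lay within 50 bp of it, against 59.3% of the ETS matches over all genes, whose median was -18 bp. Proteasome genes with the letters had a median promoter signal of 15.2 and those without 13.0, and over all genes these medians were 12.8 and 10.98. With windows of 50 bp each side the letters stood in 12 windows in all, in 7 of the 17 of 19S genes and in 1 of the 14 of core genes. No share over all genes is given for that width, and the 14.1% above holds for 75 bp each side.

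**Figure D3:**
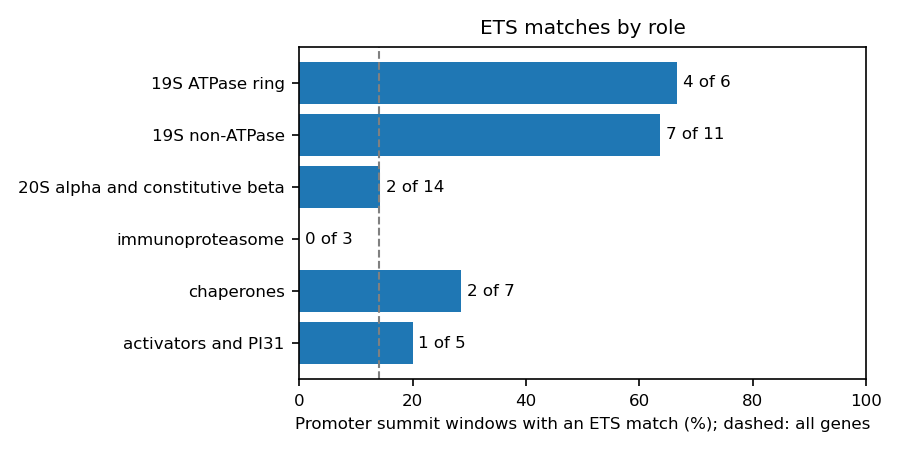
Share of promoter summit windows with the ETS letters (horizontal axis, %) in each role group of proteasome genes, with the number of windows beside each bar. The dashed line is the share over all genes with a promoter region, 14.1%. The 19S ATPases stand at 66.7%, the non-ATPase subunits at 63.6% and the pooled 20S core genes at 14.3%.

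The non-ATPase subunits with the highest signals show where these letters stand. In the stretches given here, read on GRCm38 in the direction of each gene and ended at most 30 bp past the start site, capitals mark CCGGAAG or its reverse complement.
Psmd6 (chr14:14120954-14121052, minus strand): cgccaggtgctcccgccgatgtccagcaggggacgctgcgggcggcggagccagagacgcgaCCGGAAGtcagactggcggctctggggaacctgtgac
Psmd11 (chr11:80428474-80428624, plus strand): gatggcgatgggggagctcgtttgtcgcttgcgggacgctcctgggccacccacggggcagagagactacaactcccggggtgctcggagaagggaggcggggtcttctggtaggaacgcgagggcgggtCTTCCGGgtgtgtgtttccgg
Psmd2 (chr16:20651590-20651682, plus strand): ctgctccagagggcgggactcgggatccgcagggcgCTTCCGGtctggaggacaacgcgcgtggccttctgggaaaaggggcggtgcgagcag
Psmd7 (chr8:107588434-107588540, minus strand): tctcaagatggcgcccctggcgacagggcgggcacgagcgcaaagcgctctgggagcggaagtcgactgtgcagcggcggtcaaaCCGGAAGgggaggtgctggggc
The centre of the match lies at -3 bp from the start of Psmd6, -16 bp at Psmd11, -23 bp at Psmd2 and 12 bp at Psmd7, negative values being upstream. It is in the direction of transcription at Psmd6 and Psmd7 and on the other strand at Psmd11 and Psmd2.

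The antioxidant response letters TGACNNNGC, bound by NFE2L1 and NFE2L2 with small MAF partners, were found in 6 of the 47 windows (12.8%), against 9.21% of all such windows. They were at Psmb2, Psmb5 and Psmb6 in the beta ring and at Psmc6, Psmd9 and Psme4. With windows of 50 bp each side the count was 3, and no share over all genes is given for that width. A window of 300 bp at the 5′ end of each gene, placed without use of peaks, was also searched. There the letters stood at 6 of 50 genes (12%), against 12.5% of all genes. The promoter region of Psmd9 lies 58.6 kb inside from its 5′ end and outside that window, so these need not be the same 6 genes. The letters can overlap TGACGT, which was also searched. The 3 beta ring promoters are shown since they include 2 catalytic subunits, with TGACNNNGC in capitals.
Psmb6 (chr11:70525243-70525393, plus strand): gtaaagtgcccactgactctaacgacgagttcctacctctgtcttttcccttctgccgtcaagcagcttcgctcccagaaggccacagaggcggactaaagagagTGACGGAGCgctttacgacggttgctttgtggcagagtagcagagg
Psmb5 (chr14:54617992-54618102, minus strand): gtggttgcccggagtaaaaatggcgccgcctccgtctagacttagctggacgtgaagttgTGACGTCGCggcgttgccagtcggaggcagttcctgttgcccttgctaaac
Psmb2 (chr4:126677528-126677660, plus strand): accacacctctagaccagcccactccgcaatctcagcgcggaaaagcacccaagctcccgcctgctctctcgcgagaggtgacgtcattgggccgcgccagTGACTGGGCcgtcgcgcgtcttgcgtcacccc
The match is centred at -34 bp from the start of Psmb6, -16 bp at Psmb5 and 3 bp at Psmb2.

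The interferon response letters recognised by IRF factors, GAAA repeated after a spacer of 2 bases, were found in 5 windows (10.6%), against 1.21% of all such windows, at Psmb3, Psmb10, Psmd4, Psmg4 and Psme1. A window of 300 bp at the 5′ end of each gene, mostly upstream of it and placed without use of peaks, was also searched. There the letters stood at 5 of 50 genes (10%), against 3.55% of all genes. The Psmb10 matches given below lie outside that window, so these need not be the same 5 genes. Of the 5 genes named Psmb10 and Psme1 are known to be induced by interferon. With windows of 50 bp each side the count was 3, and no share over all genes is given for that width. At Psmb10 there were 2 matches, both in the annotated UTR downstream of the start, 263.5 and 320.5 bp from it at their centres, on either side of the summit. The letters were not found in the windows of Psmb8 and Psmb9. Psme1 and Psmb8 are shown as interferon-inducible promoters, with capitals at the IRF letters (on the other strand) in Psme1 and at the cyclic AMP response element TGACGTCA in Psmb8.
Psme1 (chr14:55578384-55578534, plus strand): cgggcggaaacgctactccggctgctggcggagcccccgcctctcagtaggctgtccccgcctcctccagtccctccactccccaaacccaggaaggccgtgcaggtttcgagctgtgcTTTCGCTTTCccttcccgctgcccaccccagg
Psmb8 (chr17:34197633-34197751, plus strand): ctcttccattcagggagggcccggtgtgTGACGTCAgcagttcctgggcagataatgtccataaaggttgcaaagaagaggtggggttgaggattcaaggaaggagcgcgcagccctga
The match is centred at -30.5 bp from the start of Psme1 and the element in Psmb8 at -56.5 bp. TGACGTCA stood in 2 of the 47 windows (Psmb2 and Psmb8; 3.03% of all such windows).

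For the other motifs the counts were as follows, and those of 1 or 2 windows (2.13% or 4.26%) are too few to place above or below the share of all windows. GGGCGG, the letters bound by SP factors, stood in 24 windows (51.1%, against 53.2% of all windows) and CCAAT, the NFY box, in 11 (23.4%, against 30%). Of the 15 CCAAT matches, 11 lay within 50 bp of a start site, 73.3% against 29.7% of the matches over all genes. TGACGT, which is part of TGACGTCA, stood in 4 windows (9.5% of all), AAGATGGCG, the YY1 letters, in 2 (1.8% of all), the ZBTB33 palindrome in 2, at Psmb2 and Psmd5 (0.949% of all), and the THAP11 consensus in 2 (3.82% of all). The blood letters AGATAA, bound by GATA factors, stood in 2 windows, Psmb8 and Psmb10 (2.83% of all), and TATAAA in 1, Psmb4 (1.84% of all). CACGTG, the E-box, stood in 1 (6.15% of all), the NRF1 consensus in 1 (0.972% of all) and its looser form, which overlaps it, in 1 (2.95% of all). The ZNF143 consensus stood in none of the 47 windows and in 0.557% of all. CpG dinucleotides numbered 13 at the median proteasome window and 12 over all windows. Psma7, with the lowest signal of the open alpha genes, had GGGCGG or its reverse complement 4 times, overlapping matches included, given in capitals.
Psma7 (chr2:180042403-180042523, minus strand): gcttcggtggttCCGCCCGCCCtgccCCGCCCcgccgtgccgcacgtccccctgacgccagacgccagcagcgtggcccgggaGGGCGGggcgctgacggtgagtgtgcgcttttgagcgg
Its summit window held 22 CpG dinucleotides, the most of the 47 summit windows, so a low signal there went with a CpG-rich sequence. In the windows of 300 bp at the 5′ end Psmg2 had more, 45 against 40 at Psma7. Across the 47 genes the Spearman correlation of signal with the number of CpG was 0.05, a description over genes that are not independent.

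**Figure D4:**
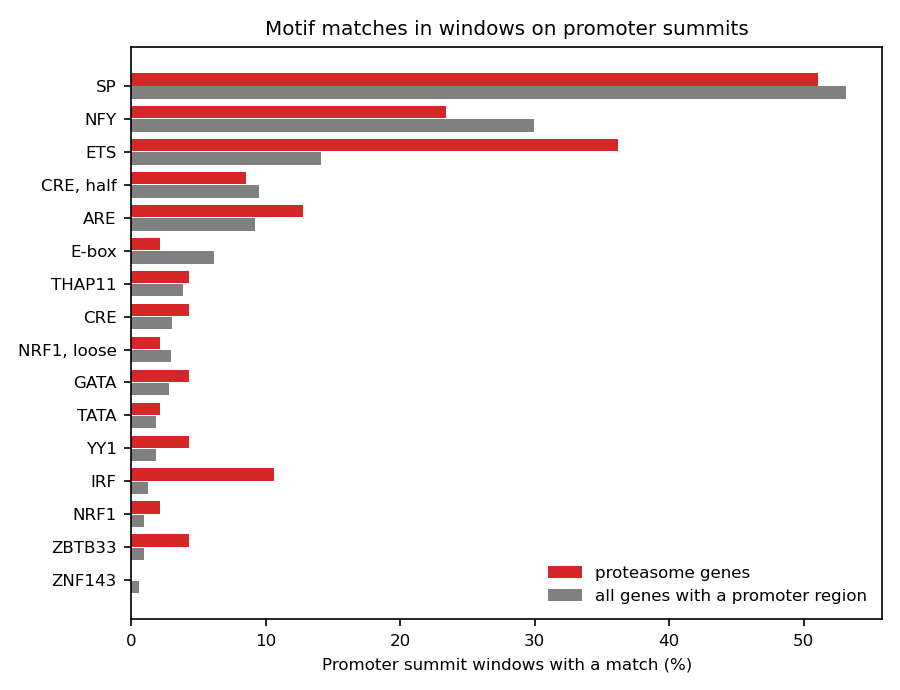
Share of promoter summit windows (75 bp each side) that hold each motif's letters (horizontal axis, %), for the 47 proteasome genes with a promoter region (red) and all 13276 such genes (grey). ETS (36.2% against 14.1%) and IRF (10.6% against 1.21%) show the widest gaps on the higher side.

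Distal regions, those within 50 kb of a gene's 5′ end whose strongest summit lay outside promoters, were counted next. By this rule the Psmb10 region of 1761 bp counts both as its promoter region and as a distal region. The proteasome genes had 5.14 on average and a median of 4.5, against 4.20 and 4 over all protein-coding genes. In replicate 1 the means were 3.76 and 3.08 and in replicate 2 they were 3.98 and 3.02. Among genes with a promoter region the means were 5.17 and 5.19, so the proteasome genes had as many distal regions as other open genes. At least 1 distal region was listed at 48 of the 50 genes, against 82% of all genes, and Psmc4 and Psmd11 had none in the conservative list, though Psmd11 had 1 in replicate 1. The promoters of Psmc4 and Psmd11 were among the 5 strongest of the set, and across the 47 genes signal and distal count had a Spearman correlation of -0.03, given as a description.

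**Figure D5:**
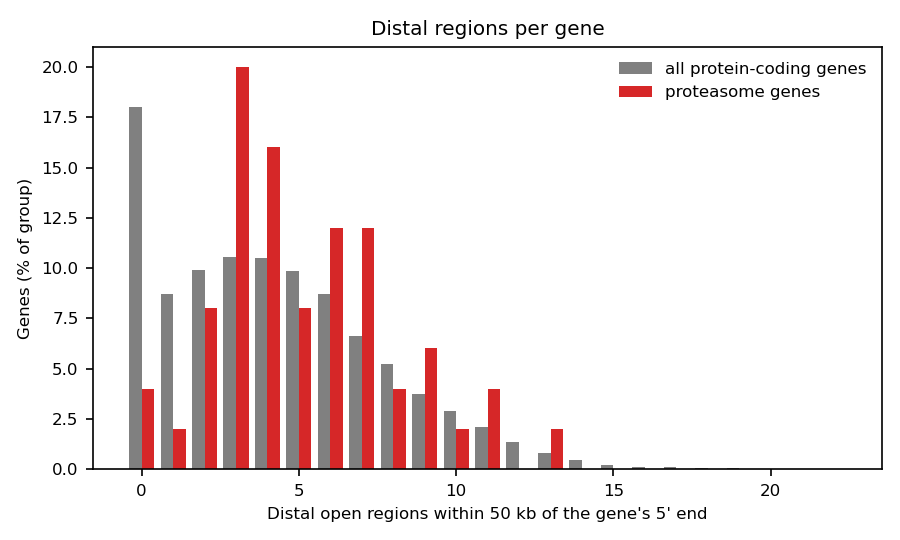
Share of genes (vertical axis, % of each group) by the number of distal open regions within 50 kb of the gene's 5′ end (horizontal axis), for the 50 proteasome genes (red) and all 21938 protein-coding genes (grey). Proteasome genes are fewer at 0 (4% against 18.0%) and reach at most 13.

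The most distal regions were at Psmd9, a chaperone of the ATPase base, with 13 in the conservative list, 11 in replicate 1 and 9 in replicate 2. Psmc3 had 11 (7 and 6 in the replicates), Psmd12 11 (8 and 9) and Psmb4 10 (8 in each). Psmb5, Psmb11 and Psmg3 had 9 each. The 5′ end of Psmd9 is that of a long annotated transcript, and its promoter region (chr5:123228027-123228564) lies 58.6 kb inside, so its count describes the surroundings of the annotated end. The strongest distal region of Psmd9 lay 2.40 kb downstream of its 5′ end, in an exon, with a signal of 19.2 (chr5:123171584-123172161; 17.6 in replicate 1 and 17.7 in replicate 2), above 98.6% of non-promoter regions. Among all distal regions of the set the strongest lay 22.2 kb downstream of the 5′ end of Psmd6 and past its 3′ end, in an intron of Atxn7, with a signal of 21.1 (chr14:14098406-14099069; 18.3 and 20.3 in the replicates). Next to these stood a region 5.74 kb upstream of Psma1 (chr7:114281700-114282152, signal 18.7; 16.8 and 16.7) and a region in an intron of Psma2, 5.73 kb from its 5′ end (signal 18.6; 15.0 and 18.2). Distance alone linked these regions to the genes, and other genes lie in the same windows.

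The 257 pairs of gene and distal region stood for 240 distinct regions, of which 17 were shared by 2 proteasome genes. The shared ones were 8 regions between Psmb5 and Psmb11, which are neighbours on chromosome 14, 7 between Psmb8 and Psmb9, and 2 between Psme1 and Psme2. Of the 240 regions 159 (66.2%) overlapped a region in the own list of each replicate, against 59.7% of all 65539 non-promoter regions. They were ordinary in height, with a median signal of 8.67 against 8.74 over all of those, and 24 of 240 (10%) were above the level that 10% of those regions exceed. By position 114 lay in introns, 104 between genes and 22 in exons of protein-coding genes. The GATA letters AGATAA stood in 33 of their 240 summit windows (13.8%, and 13.8% of all non-promoter windows), and CCGGAAG in 9 (3.75%, against 1.73%). GGGCGG stood in 24 (10%, against 6.98%), CCAAT in 42 (17.5%, against 16.4%), TGACNNNGC in 21 (8.75%, against 8.81%), CACGTG in 11 (4.58%, against 3.3%) and TGACGT in 6 (2.5%, against 2.57%).

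Genes that work with the proteasome gave a further comparison. The list held 31 genes, subunits and partners without a Psm symbol, ubiquitin genes, shuttle factors and the peptide transporters, of which 30 had a match in the annotation. All 30 had a promoter region in the conservative list, against 60.5% of all protein-coding genes. Their median signal was 10.5, below the 13.3 of the proteasome genes and the 11.3 of all genes with a promoter region. In the conservative list the highest were Zfand2a, a proteasome-binding stress factor, with 16.9 (15.3 in replicate 1 and 16.6 in replicate 2), Txnl1, a thioredoxin of the 19S particle, with 16.8 (15.7 and 16.2), and Nfe2l1, the transcription factor of the proteasome recovery response, with 16.3 (15.7 and 14.7). Its relative Nfe2l2 had 6.36 (5.96 and 6.41). Ubb and Rps27a, which encode ubiquitin, had 8.49 and 9.90, both below the median of all genes. Of the proteasome subunits without a Psm symbol, Adrm1, a ubiquitin receptor, had 10.1 and Sem1 13.3.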

How the data were processed

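ATAC-seq peak lists of 2 libraries were analysed. Per the labels, coordinates are on mm10; the reference was GRCm38.p6, its assembly, with GENCODE M21. Signal values are those the authors deposited per summit, with no scaling between libraries stated; the -log10 q values were also deposited by the authors. The score of the authors' ranked list of summit pairs is the -log10 of the irreproducible discovery rate. The sources used here do not name the aligner, the peak caller, their versions, or how duplicates and the transposase offset were treated; each could move summits and signals.

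Where several summits shared an interval, they formed 1 region carrying the highest of their signals. Distal regions have their strongest summit outside 1 kb of every protein-coding start site. Psmb10 is the only proteasome gene whose promoter region had its strongest summit beyond 1 kb. Values within 1 kb are given for it, and its region is also counted as distal. Letters of 16 motifs were matched on both strands with Python 3.11.15 and pysam 0.24.0. On simulated data, promoter calls, signals, distances, distal counts and motif calls were tested and all planted answers came back.

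The gene rule reads names only, but it, the role groups, lists and motifs were chosen with earlier results of these data known. Named genes were the highest and lowest of each role group, those without a promoter region, the immunoproteasome genes and their counterparts, those with most distal regions, and the 3 highest related genes. Other genes named with values were chosen after these were seen, and some genes of the related and marker lists are not reported here. No p-value was computed, since 1 group allows no contrast and genes are not replicates. Alternatives were other lists, windows and each replicate alone.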

Additional observations from a re-analysis of the deposited data

How the results depend on the processing

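The 47 genes with a promoter region became 44 to 48 under the other windows, lists and start sites and under each replicate alone, among them 44 from gene 5′ ends alone and 44 among the stronger 50% of regions. The median promoter signal of 13.3 was 11.9 to 13.0 in the libraries alone and 13.2 to 13.3 elsewhere. The 257 pairs of gene and distal region became 95 within 20 kb, 531 within 100 kb, 431 in the replicated list, 405 in the pseudoreplicated list and 124 among the stronger 50% of regions, and 188 to 199 in the libraries alone. With motif windows of 50 bp each side the counts became 0 for YY1, 3 for the antioxidant response letters, 1 for THAP11, 1 for GATA, 0 for TATA and 3 for IRF. With 100 bp each side they became 2 for NRF1, 4 for YY1 and 3 for the E-box. For these other widths no shares over all genes are given, so the counts have no background beside them. In the libraries alone the E-box stood in 1 to 2 windows and TATA in 0 to 1. No paired analysis was possible because there is only 1 group. Depth is unknown, signals were not scaled between libraries by a stated method, and 2 libraries from 1 donor identifier cannot give a test of any gene.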
